A study of Sus scrofa with 4 samples.

Results

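The microRNA (miRNA) content of exosomes from the umbilical vein of normal newborn piglets was compared with that of exosomes from their umbilical artery. Each vessel gave 1 small RNA library, so the comparison had no replicate and no test. Members were the miRNA rows of the deposited normal vein and artery table with 10 or more reads over both libraries, after rows named PC- and rows of miR-3168 had been left out. These were 156 of the 581 rows of that table, and the whole series held 664 rows. The study took cord blood at birth from normal Yorkshire piglets and from littermates with intrauterine growth restriction (IUGR), drawing the vein and the artery separately into EDTA. Plasma was cleared of cells by centrifugation and filtered, and the exosomes were pelleted by ultracentrifugation. Each of the 4 libraries (normal vein, normal artery, IUGR vein and IUGR artery) was a pool of 3 piglets, sequenced as single reads of 36 bases. The labels give each library's vessel, while normal or IUGR was taken from the letters N and I in the deposited column names. Nothing in the labels says whether the vein and artery pools held the same piglets.

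A miRNA is a short RNA that guides a repressor complex to messenger RNAs, mainly through its seed, bases 2 to 8 from the 5′ end. Exosomes are small vesicles that cells shed into blood, and they carry miRNAs of the cells they come from. The umbilical vein carries blood that has passed through the placenta and taken up oxygen there toward the fetal liver and heart, and the umbilical arteries carry blood that has passed through the fetal body. Blood plasma also holds miRNAs released by red cells and platelets, and miR-451, miR-144 and miR-486 are the best known miRNAs of red cells. No miRNA marks exosomes as such, so the exosome label could not be checked in these data. Levels below are reads per 10000 remaining reads of a library, a share of that library and not an amount of RNA in blood, so fewer vesicles of a type and less RNA per vesicle cannot be told apart.

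The sequences that carry the comparison are given as deposited, from 5′ to 3′ with T for U and the seed in capitals. The first set is of red-cell miRNAs and includes miR-451, the most abundant sequence of both vessels.
miR-451: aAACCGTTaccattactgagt
miR-486: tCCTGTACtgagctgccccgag
miR-144: tACAGTATagatgatgtac
The second set, of liver miRNAs and of miR-202-5p, had among the highest levels in artery relative to vein. The reads of miR-192 and miR-215 were listed under the same sequence, and so were those of miR-194a and miR-194b.
miR-122: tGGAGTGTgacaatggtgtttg
miR-192 and miR-215: aTGACCTAtgaattgacagcc
miR-194a and miR-194b: tGTAACAGcaactccatgtgga
miR-202-5p: tTCCTATGcatatacctcttt
The third set holds members of families whose rows were together higher in artery.
let-7a: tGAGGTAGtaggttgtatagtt
let-7c: tGAGGTAGtaggttgtatggtt
miR-26a: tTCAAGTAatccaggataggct
miR-30e-5p: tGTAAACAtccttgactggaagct
The fourth set was higher in vein.
miR-191: cAACGGAAtcccaaaagcagct
miR-423-3p: aGCTCGGTctgaggcccctcagt
miR-93-3p: aCTGCTGAgctagcacttcccga
The fifth set pairs family members that share a seed. The ratios of the miR-23 and miR-125 pairs stood apart, while miR-10a and miR-10b both had higher levels in vein.
miR-10a: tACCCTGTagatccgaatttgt
miR-10b: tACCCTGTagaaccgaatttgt
miR-23a: aTCACATTgccagggatttcc
miR-23b: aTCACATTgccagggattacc
miR-125a: tCCCTGAGaccctttaacctgt
miR-125b: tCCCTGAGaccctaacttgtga

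The vein library was the deeper, with 40691 reads over all its rows against 13749 in artery. The left-out rows took 13.2% of the vein reads (95% exact binomial interval 12.9 to 13.6) and 46.0% of the artery reads (45.2 to 46.9). After they were removed 35300 reads remained in vein and 7419 in artery, so that 1 read was worth 0.283 per 10000 in vein and 1.35 in artery. Of the 156 members, 141 had 10 or more reads in vein and 86 in artery. They held 98.4% of the remaining vein reads and 96.7% of the remaining artery reads. Of these rows 20 share a sequence with another, which leaves 146 sequences. Intervals below are exact conditional binomial intervals that cover counting error only, since reads amplified by PCR without molecular identifiers are not independent molecules.

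Scaled to the remaining reads, more miRNA rows were at least 2-fold higher in artery than in vein. A level at least 2-fold higher in artery was found for 45 of the 156 members (28.8%), and 34 of them (21.8%) also had a 95% interval of the ratio that left out equal levels. At least 2-fold higher levels in vein were found for 19 members (12.2%), 11 of them (7.05%) with such an interval. The other 92 members were less than 2-fold apart, and the median log2 ratio of vein over artery was −0.11, with quartiles at −1.10 and 0.47. The split depended on the total used for scaling. With the rows named PC- and miR-3168 kept in the total, each log2 ratio of vein over artery was 0.68 higher, and 47 members were at least 2-fold higher in vein against 25 in artery. The deposited normalized values shifted the median by 0.62 and gave 45 against 25. A median of ratios shifted it by 0.13 and gave 26 against 36. A change of total moves all members by the same amount on the log2 scale, so it leaves the order of the members with reads in both libraries as it is.

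**Figure D1:**
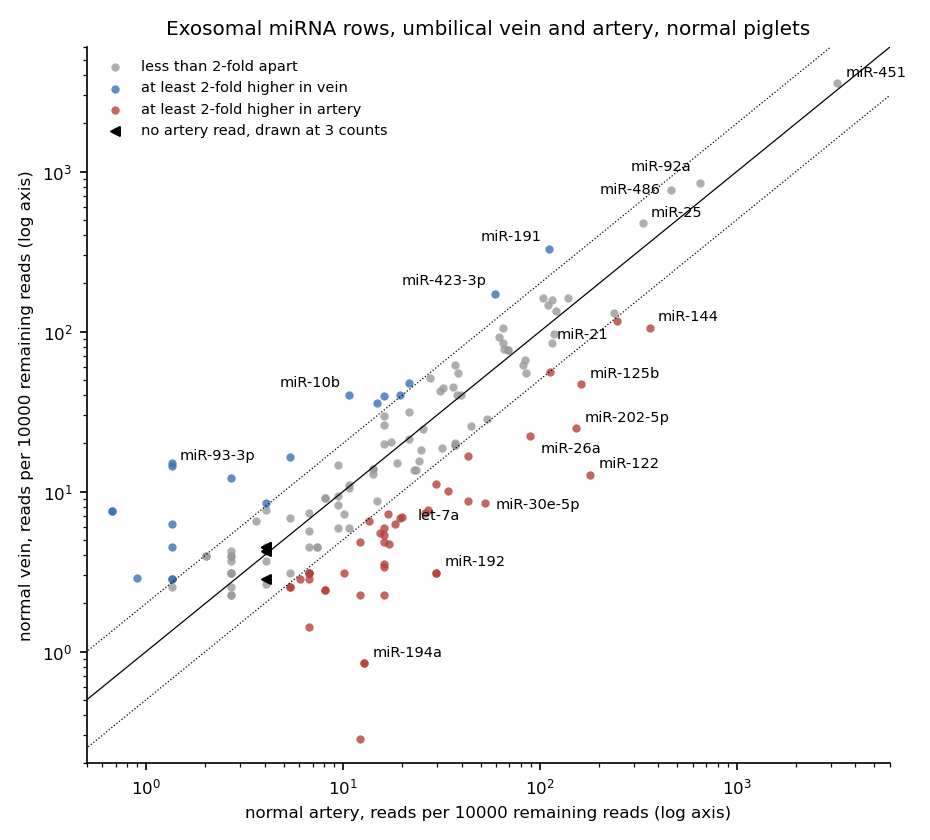
Levels of the members in the artery library (horizontal axis) and the vein library (vertical axis) of normal piglets, in reads per 10000 remaining reads on log axes, 1 dot per row. The solid line marks equal levels and the dotted lines 2-fold differences. The rows of miR-451, miR-92a, miR-486 and miR-25 lie between the dotted lines, miR-191 and miR-423-3p lie above them and miR-144 and miR-21 below, and miR-122, miR-192 and miR-194a lie lowest against the line of equal levels among the labelled rows.

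Red-cell miRNAs dominated both vessels. Rows of this list, 6 of them members, held 44.8% of the remaining vein reads and 40.8% of the remaining artery reads. The share of a list, here and below, also counts its rows below the read minimum. The most abundant row in both libraries was miR-451, an erythroid miRNA that is cut by Argonaute 2 and not by Dicer, at 3584 per 10000 in vein and 3242 in artery. Its log2 ratio of 0.14 (0.08 to 0.21) was the nearest to 0 among the red-cell rows. The next red-cell row, miR-486, stood at 767 in vein and 461 in artery, a log2 ratio of 0.73 (0.57 to 0.90). By contrast miR-144, which is transcribed together with miR-451 from a single erythroid locus, stood at 106 per 10000 in vein (374 reads) and 361 in artery (268 reads). That is 3.41-fold higher in artery, with a log2 ratio of −1.77 (−2.0 to −1.54), so that the miRNAs of this locus were 1.91 apart on the log2 scale. The list thus had 2 rows at least 2-fold higher in vein, both longer end variants with 1 artery read each, and 1 row at least 2-fold higher in artery.

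Some other abundant families were less than 2-fold apart in their summed reads. The miR-25/miR-92/miR-363 seed family, whose members miR-92a, miR-25 and miR-363 come from the 17-92 cluster and its relatives, held 13.6% of vein reads and 10.3% of artery reads. Within it miR-92a stood at 844 per 10000 in vein and 650 in artery, and miR-25 at 476 and 333. The log2 ratios of these rows were 0.38 (0.24 to 0.52) and 0.51 (0.32 to 0.71). With the left-out rows kept in the total the log2 ratio of the summed reads of this family was 1.09. The miR-15/miR-16 family, known for restraining the cell cycle, held 4.43% of vein reads and 5.38% of artery reads, an order that the total with the left-out rows kept in reversed. None of its 5 rows was 2-fold apart, and miR-15a was the nearest to it at 130 in vein and 239 in artery, a log2 ratio of −0.88 (−1.13 to −0.62). Of the 15 rows of the miR-17, miR-18 and miR-19 families 3 were at least 2-fold higher in vein and 1 in artery, against 12.2% and 28.8% of all members.

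The largest difference of any list was that of the liver miRNAs. All 5 of their rows (3 sequences) were at least 2-fold higher in artery, each with an interval that left out equal levels, against 28.8% of all members. With its rows below the read minimum counted in, the list held 0.207% of the remaining vein reads (0.162 to 0.260). In artery it held 2.68% of the remaining reads (2.33 to 3.08), a 12.97-fold higher share. The row of miR-122, the most abundant miRNA of hepatocytes, had 45 reads in vein and 133 in artery. Its level was 12.7 per 10000 in vein and 179 in artery, or 14.1-fold higher in artery, with a log2 ratio of −3.81 (−4.34 to −3.32). By abundance its row was number 8 in artery and number 69 in vein. The rows of miR-192 and miR-215, which are high in liver and gut, share a sequence, and the sum above counts both. Each row was at 3.12 per 10000 in vein and 29.7 in artery, a log2 ratio of −3.25 (−4.44 to −2.14). The sequence of miR-194a and miR-194b, which lies beside miR-192 or miR-215 in the genome, had 3 reads per row in vein and 9.5 in artery, a log2 ratio of −3.91 (−6.49 to −2.03). With the left-out rows kept in the total the log2 ratios were −3.13 for miR-122, −2.57 for miR-192 and −3.23 for miR-194a, so each was still at least 2-fold higher in artery. The left-out rows took a larger share of the artery library than of the vein library, and their part in the difference of the liver rows beyond this change of total was not tested.

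Several broadly expressed families were also higher in artery. The let-7 family, whose members rise as cells differentiate, held 0.702% of vein reads and 2.13% of artery reads. At least 2-fold higher in artery were 8 of its 9 rows, against 28.8% of all members. An interval that left out equal levels was found for 6 of these rows. Of these, let-7a stood at 8.68 per 10000 in vein and 43.4 in artery, a log2 ratio of −2.32 (−3.06 to −1.54). The level of let-7g was 16.8 in vein and 43.1 in artery, a log2 ratio of −1.36 (−2.01 to −0.70). The exception was let-7d-3p, the opposite strand of the let-7d hairpin, with a log2 ratio of 0.16 (−1.11 to 1.71). An end variant of let-7a had the lowest ratio of all members, on only 1 vein read and 9 artery reads.

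The miR-26 family had both rows at least 2-fold higher in artery, against 28.8% of all members. Of them miR-26a, which is abundant in most differentiated tissues, stood at 22.1 per 10000 in vein and 89.0 in artery, a log2 ratio of −2.01 (−2.50 to −1.51). Both rows of the miR-103/miR-107 family, known for its part in insulin sensitivity, were higher in artery too, with log2 ratios of −1.85 for miR-107 and −1.55 for miR-103. Of the 5 miR-30 rows 3 were at least 2-fold higher in artery, led by miR-30e-5p at 8.50 in vein and 52.6 in artery, a log2 ratio of −2.63 (−3.37 to −1.90). The most abundant of them, miR-30b-5p, was at 40.3 in vein and 39.5 in artery. The family was therefore not uniform. With the left-out rows kept in the total, let-7a, miR-26a, miR-30e-5p and miR-107 were still at least 2-fold higher in artery, while let-7g, let-7f, miR-103 and miR-30c-5p were no longer so.

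Apart from miR-144, miR-122 and these families, the most abundant rows at least 2-fold higher in artery were miR-21, miR-125b and miR-202-5p. The level of miR-202-5p, a miRNA best known from the gonads, was 24.9 per 10000 in vein and 152.3 in artery, a log2 ratio of −2.61 (−3.03 to −2.20). For miR-21, which is expressed in most cells and abundant in platelets and leukocytes, the levels were 117 and 247, a log2 ratio of −1.08 (−1.33 to −0.82). It was no longer 2-fold higher in artery with the left-out rows kept in the total. The hypoxia-induced miR-210 rested on 8 vein reads and 9 artery reads, or 2.27 per 10000 in vein and 12.1 in artery, with a log2 ratio of −2.42 (−3.99 to −0.87).

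The vein exosomes were richer in a smaller group led in abundance by miR-191 and miR-423-3p. The row of miR-191, a miRNA of platelets and other blood cells, had 1150 reads in vein and 83 in artery, or 326 and 112 per 10000. The row of miR-423-3p, a widely expressed miRNA with a GC-rich hairpin, had 610 and 44 reads, or 173 and 59.3 per 10000. Both were 2.91-fold higher in vein, with log2 ratios of 1.54 (1.22 to 1.88) for miR-191 and 1.54 (1.10 to 2.02) for miR-423-3p. Scaled to the remaining reads, these were the only rows among the 10 most abundant of the vein that were at least 2-fold higher there. With the left-out rows kept in the total each log2 ratio was 0.68 higher. Other rows of these 10, among them miR-486, miR-25 and miR-92a, were then at least 2-fold higher in vein as well, while miR-451 was not. The level of miR-10b, which is encoded in the HOXD gene cluster, was 39.9 in vein and 10.8 in artery, a log2 ratio of 1.89 (0.87 to 3.13). Further rows whose interval left out equal levels were miR-125a, miR-150, miR-19a, miR-145-5p, miR-365-3p, miR-93-3p, 1 row of miR-484 and a longer end variant of miR-486. Their log2 ratios ran from 1.04 for this miR-484 row to 3.49 for the miR-486 variant, and the highest ones rested on 1 artery read. The more abundant row of miR-484, of 21 bases, had a log2 ratio of 0.74 (0.15 to 1.34), less than 2-fold.

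**Figure D2:**
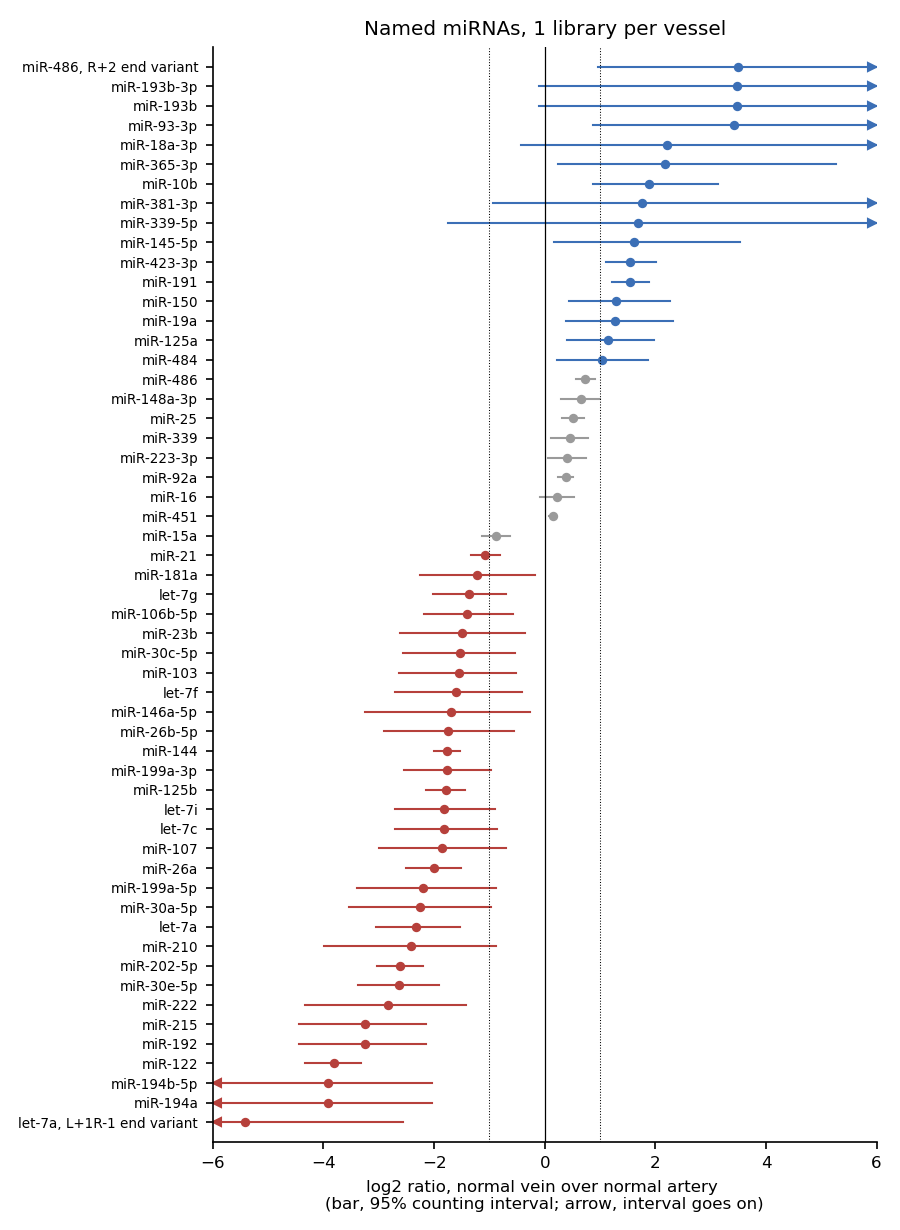
Log2 ratio of vein over artery (horizontal axis) for the named miRNAs with reads in both libraries, with the 95% counting interval as a bar. Dots in blue are at least 2-fold higher in vein, dots in red at least 2-fold higher in artery and dots in grey less than 2-fold apart, as marked by the dotted lines. The rows of miR-191 and miR-423-3p have short intervals above 1, while those of miR-93-3p and miR-18a-3p, with 1 artery read each, run past the edge of the plot.

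The list of GC-rich and noncanonical miRNAs, which includes miR-484 and miR-320, whose capped precursors bypass Drosha, held 4.62% of vein reads and 2.38% of artery reads. Of its 8 rows 7 had a log2 ratio above 0, but only miR-423-3p and 1 row of miR-484 were at least 2-fold higher in vein, against 12.2% of all members. The ratio of the summed reads was 1.94. Base composition moved with the ratio over all members as well. Among 142 sequences with reads in both vessels, the rank correlation of GC content with the log2 ratio was 0.29 (Spearman; Pearson 0.27). Among the 81 with 10 or more reads in each library it was 0.43. The rank correlation of the level with the log2 ratio was of similar size in these 81, at 0.41, but −0.014 among the 142. These sequences share the same pair of libraries, so the values are a description. The median log2 ratio was −0.57 for 29 sequences under 40% GC, −0.79 for 51 sequences from 40 to under 50%, 0.25 for 32 from 50 to under 60% and 0.19 for 30 at 60% and over. Whether library preparation had a part in this was not tested.

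Lists for blood cells and vessel wall did not move as blocks. The platelet and myeloid list held 6.61% of vein reads and 5.66% of artery reads, with miR-191 higher in vein and miR-21 higher in artery. Its miR-223-3p, a myeloid and platelet miRNA, stood at 146 per 10000 in vein and 111 in artery, a log2 ratio of 0.40 (0.06 to 0.75). In the lymphoid and inflammatory list miR-150, a miRNA of mature lymphocytes, was at 39.4 in vein and 16.2 in artery, while miR-146a-5p, an NF-kappa-B target, was at 3.12 and 10.1. Of the 4 endothelial rows, miR-126-5p was at 39.9 and 37.7 per 10000 and miR-126-3p at 25.8 and 44.5. Only miR-222 was at least 2-fold apart, at 2.27 in vein and 16.2 in artery, a log2 ratio of −2.84 (−4.33 to −1.42). The smooth muscle and mesenchymal list summed to 2.25% of vein reads and 2.24% of artery reads. Within it miR-145-5p was higher in vein and both strands of miR-199a, a miRNA of mesenchymal cells, were higher in artery. Of the 3 striated muscle rows none was 2-fold apart. The epithelial list had 15 reads in vein and 4 in artery and the pancreatic list 1 read in each, too few for any member.

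**Figure D3:**
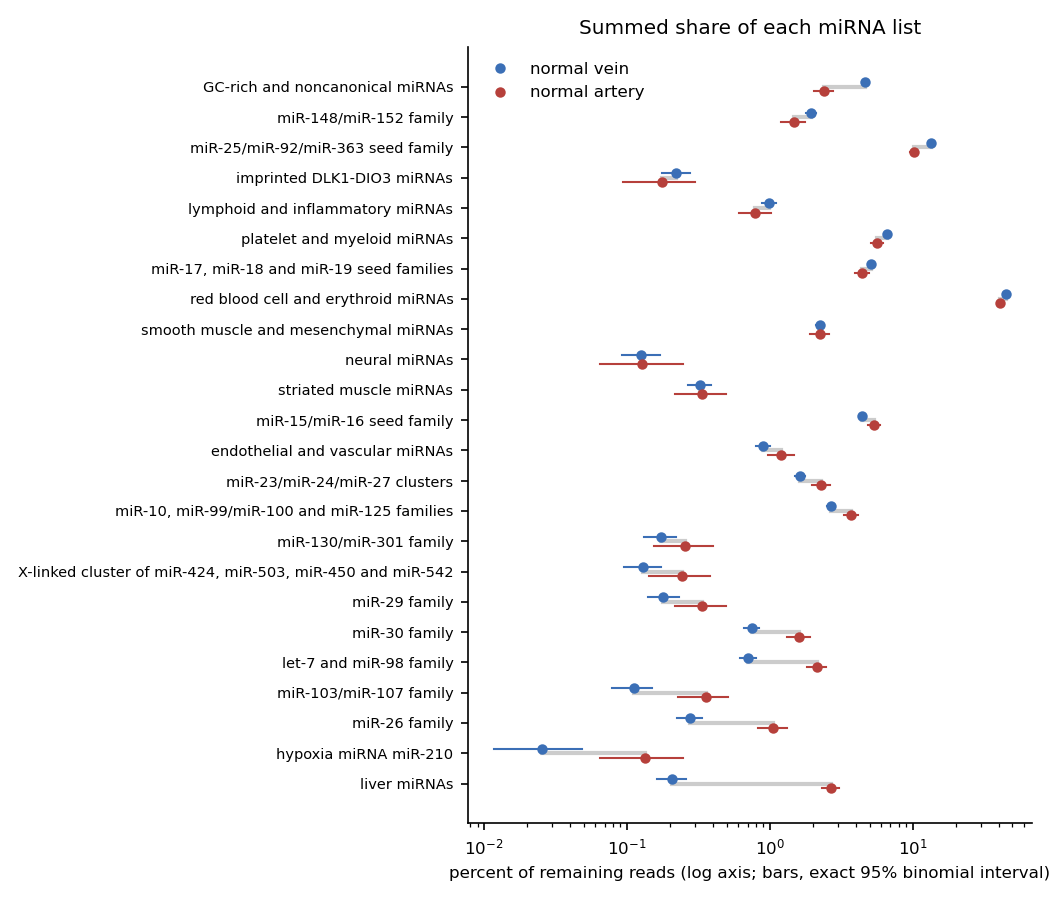
Summed share of remaining reads for each miRNA list with at least 1 member (log axis, percent), in normal vein (blue) and normal artery (red), with exact 95% binomial intervals as bars. Lists are ordered by the ratio of vein over artery. The liver list at the foot has the widest gap, 0.207% against 2.68%, and the red-cell list the highest shares.

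Seed families were compared by their summed levels and by the range of the ratios within them. There were 17 seed families with more than 1 miRNA, holding 58 rows. The summed level of 4 of them was at least 2-fold higher in artery: miR-26, miR-103/miR-107, let-7 and miR-30. With the left-out rows kept in the total their log2 ratios were −1.28, −1.005, −0.98 and −0.37 in that order, so let-7 and miR-30 were no longer 2-fold apart. The miR-10 family, with a log2 ratio of summed levels of 1.44 (0.68 to 2.30), and the miR-19 family, with 1.04 (0.49 to 1.59), were at least 2-fold higher in vein. Members of a family spanned a median range of 1.20 on the log2 scale, and those of miR-30 spanned 2.66. The widest was miR-125, where miR-125a stood at 47.6 per 10000 in vein and 21.6 in artery while miR-125b stood at 46.7 in vein and 162 in artery. Their log2 ratios were 1.14 (0.40 to 1.98) and −1.79 (−2.14 to −1.44), and it was the only family with rows at least 2-fold apart in both directions. The vein levels of these miRNAs, which share a seed but lie at different loci, were thus close to each other and the artery levels were not.

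Some members differed by a single base outside the seed. From miR-23a to miR-23b the change was T19A, counted from 1 at the 5′ end of the deposited sequences over the length they share, and the log2 ratios were 0.51 (−0.08 to 1.11) and −1.49 (−2.62 to −0.35). From miR-10a to miR-10b it was T12A, with log2 ratios of 0.64 (−0.50 to 2.03) and 1.89 (0.87 to 3.13). From let-7a to let-7c it was A19G, with −2.32 and −1.82, and from miR-27a to miR-27b-3p it was C19T, with −0.92 and −0.62. Reads with an error at that base could pass from one row to the other, and this was not tested.

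**Figure D4:**
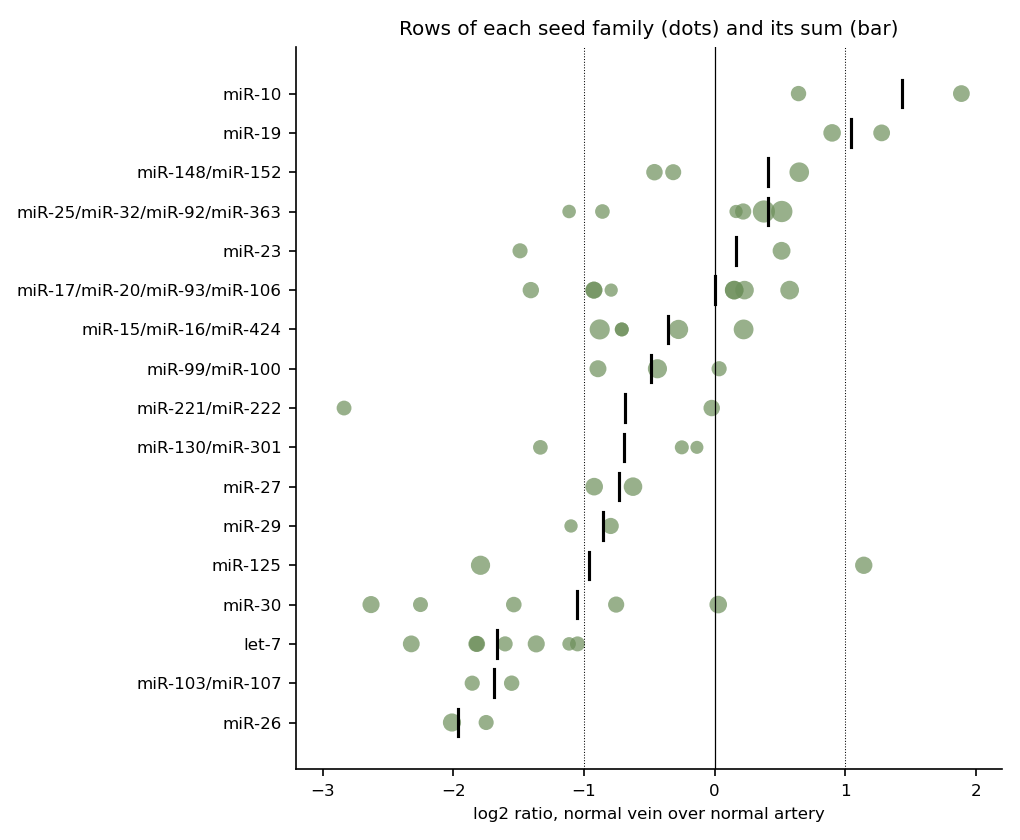
Log2 ratio of vein over artery (horizontal axis) for the rows of each seed family with more than 1 miRNA, 1 dot per row with its area growing with the log2 of its level, and the ratio of the family's summed levels as a black bar. Rows of let-7 all lie left of −1, and those of miR-125 lie on either side of 0.

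The strands of a hairpin could be compared in 14 pairs. The strand with fewer vein reads took a larger share of its pair in vein than in artery in 6 pairs and a smaller one in 8. Choosing the strand by its vein reads tilts this split toward smaller shares in vein. For miR-93 the 3p strand made up 13.5% of the pair in vein (51 of its reads; exact interval 10.24 to 17.4) and 2.13% in artery (1 read; 0.0539 to 11.3), so the intervals overlapped. For miR-126, the endothelial pair, the 3p strand made up 39.2% in vein (32.9 to 45.8) and 54.1% in artery (40.8 to 66.9). For miR-423 the 5p strand made up 37.9% in vein (34.9 to 41.1) and 52.2% in artery (41.5 to 62.7), and these intervals did not overlap. End variants could be compared for a few abundant miRNAs. The full-length form of miR-339 took 59.6% of the miR-339 reads in vein and 56.7% in artery, and the form 1 base shorter took 32.1% and 31.8%. The longer end variant of miR-486 took 1.94% of the miR-486 reads in vein (1.47 to 2.54) and 0.289% in artery (0.00732 to 1.60), on 1 artery read.

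Neighbouring miRNA genes did not always share a ratio. Of 121 miRNAs, 103 were found by name in the RefSeq gene table of Sscrofa11.1, which was used only for neighbourhood, and 47 pairs lay within 10 kb of each other. The members of 23 of these pairs were at least 2-fold apart in their ratio, and the median absolute difference was 0.94 on the log2 scale. Some miRNAs entered several pairs. The share among pairs that are not neighbours was not counted, so these values do not set neighbours apart from other pairs. Besides miR-451 and miR-144, miR-221 and miR-222 were 2.81 apart, miR-143-3p and miR-145-5p 1.46, and miR-99a and let-7c 1.39. The liver pair of miR-192 and miR-194a was 0.66 apart.

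The rows near the read minimum were uneven in information, because the vein was 4.76-fold deeper in remaining reads. A row at the minimum with equal levels would have 1.74 artery reads. There were 4 members with no artery read and none with no vein read. These were miR-139-5p and miR-186 with 16 vein reads each, miR-1343 with 15 and miR-7134-3p with 10. Since 3 artery counts equal 4.04 per 10000, none of them could be said to be 2-fold higher in vein. Just inside the minimum lay 6 rows with exactly 10 reads, among them miR-1307-5p with 5 in each library, and just outside lay 7 rows with 9 reads, among them miR-98 with 4 in artery and 5 in vein.

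The pools of IUGR piglets gave a second vein and artery pair that shares no library with the normal pair. Of the 156 members 102 had 10 or more reads over the IUGR pair, and 99 of them had reads in all 4 libraries. Over the 93 sequences of these rows the log2 ratios of the pairs had a rank correlation of 0.66 (Spearman; Pearson 0.67), a description over sequences of 4 libraries. Their median log2 ratio was −0.46 in normal and 0.67 in IUGR piglets. The left-out rows took 55.8% of the IUGR vein reads and 38.8% of the IUGR artery reads, the opposite order to the normal pair. Keeping them in the total makes the normal log2 ratios 0.68 higher and the IUGR ones lower, so that the medians lie close together. The gap between the medians, and the counts below, thus depend on the total used for scaling. Of all 102, 30 were at least 2-fold higher in IUGR artery (29.4%) and 48 in IUGR vein (47.1%). Of the 34 rows higher in normal artery beyond counting error, 31 were measured in the IUGR pair. Of those, 18 were at least 2-fold higher in artery there too, 4 were at least 2-fold higher in vein and 9 lay between. Of the 11 rows higher in normal vein, 8 were measured, 6 were at least 2-fold higher in vein there too and 1 in artery.

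The liver rows kept their direction in the IUGR pair. The row of miR-122 had 136 reads in IUGR vein and 2612 in IUGR artery, a log2 ratio of −3.48 against −3.81 in normal piglets. For miR-192 the ratios were −3.62 and −3.25, for miR-194a −5.67 and −3.91 and for miR-30e-5p −4.31 and −2.63, in the same order. In the other direction miR-191 had 3.47 and 1.54, miR-423-3p 4.52 and 1.54 and miR-10b 3.03 and 1.89. The ratio of miR-202-5p was 0.14 in IUGR piglets against −2.61 in normal piglets, at 72.5 per 10000 in IUGR vein and 65.7 in IUGR artery. The red-cell rows of miR-451 and miR-486, less than 2-fold apart in the normal pair, had log2 ratios of 2.32 and 3.24 in the IUGR pair. With the left-out rows kept in the total, miR-486 was at least 2-fold higher in normal vein too, while miR-451 was not. That total would also lower the IUGR ratios of both rows. None of these differences between the pools was tested, since each group is 1 library.

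**Figure D5:**
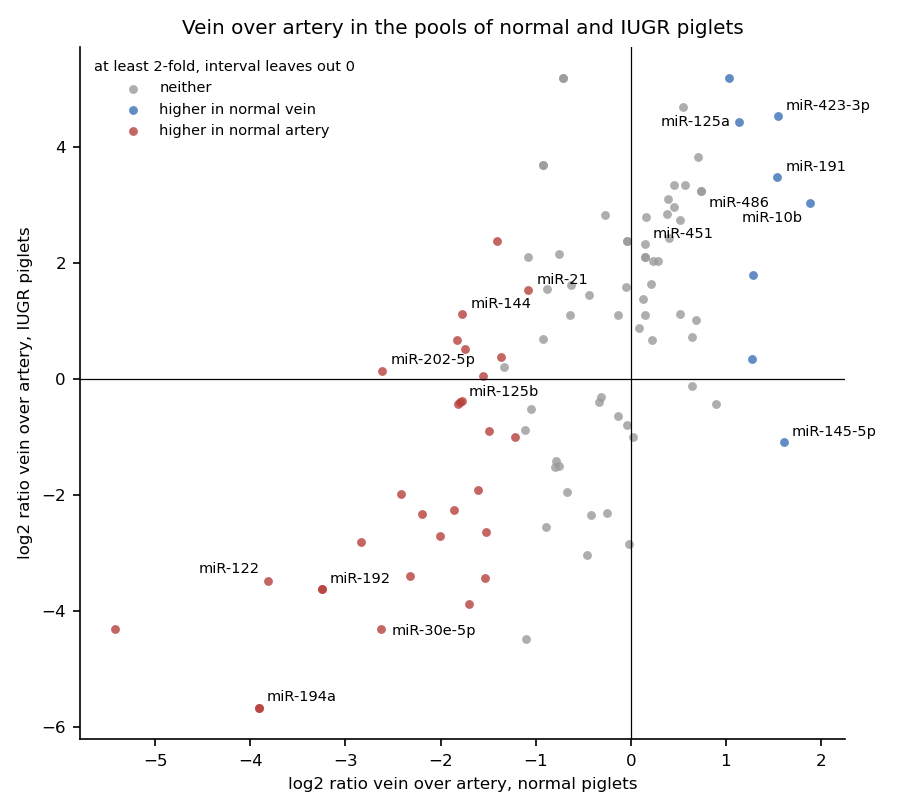
Log2 ratio of vein over artery in normal piglets (horizontal axis) and in IUGR piglets (vertical axis) for members with reads in all 4 libraries and 10 or more over the IUGR pair. Colours mark rows at least 2-fold apart in normal piglets with an interval that leaves out equal levels. The liver rows lie at the lower left, miR-191, miR-423-3p and miR-10b at the upper right, and miR-144 and miR-21 at the upper left.

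Vein and artery were also tested with both pairs taken as replicates of a vessel. With edgeR's quasi-likelihood test over the 4 libraries, 0 of 194 rows (0%) had a Benjamini-Hochberg adjusted p of 0.05 or less. An unadjusted p of 0.05 or less was found for 15 rows, and the smallest adjusted p was 0.479. That fit leaves out the pairing of the libraries by condition. With the pool as a block edgeR also called 0 rows, and the smallest adjusted p was 0.0547, for miR-122. DESeq2 called 2 rows, miR-194a and miR-194b, which hold equal parts of the same reads, with a log2 ratio of −5.75 and an adjusted p of 0.0247. Vein was lower than artery for this sequence in both pairs. The libraries of a vessel also differ in the condition of the piglets, and p-values measure only the spread between these pools.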

How the data were processed

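Exosomal small RNA of normal umbilical vein and normal umbilical artery was compared, 1 pooled library each. The genome build Sscrofa10.2 is named in the submitters' processing notes. The sources used here do not give the aligner, the way reads were counted or how they were normalized. The raw values deposited by the authors are estimated counts, where a read that matches several rows counts as a fraction in each. Beside them the authors deposited a normalized signal, which is the raw reads multiplied by 1.90 in normal vein and by 5.89 in normal artery. The authors' fold and p-value columns were not used. The labels give the vessel. Column letters gave the rest: N or I for the condition, and J or D for vein or artery.

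Rows named PC- and rows of miR-3168 (68 rows) were left out, reads were rescaled to the remaining total, and rows with 10 or more reads over both libraries were kept. With 1 library a group there was no test. Ratios carry a 95% interval from the exact conditional binomial (Clopper-Pearson) method, computed on whole reads, and a row with no read in a library has a bound against 3 counts. Called means at least 2-fold apart. All 4 libraries entered the quasi-likelihood test of edgeR 4.0.16 with TMM scaling (run in R 4.3.3 with limma 3.58.1) on counts rounded to whole numbers, with 10 or more reads over the 4. DESeq2 1.42.0 and the pool as a block were alternatives. Column letters tie the vein and artery libraries of a condition, and their deviations from the vessel means had a correlation of 0.52, a single value because with 2 libraries a vessel the deviations of the pairs mirror each other. Scripts were tested on simulated data.

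Named miRNAs were the 10 most abundant of each library, the 10 highest and 10 lowest ratios, rows lacking reads in 1 library, and those list members whose 2-fold or larger difference had an interval that left out equal levels. The most abundant row stands for a name, except for miR-484 and miR-106b-5p, where the named row is a less abundant end variant. Other named rows were chosen after their values were seen. The members and the 26 miRNA lists were chosen with earlier results of these data known. Other scaling totals, read minimums, a pseudocount and summed rows were tried as alternatives.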

Additional observations from a re-analysis of the deposited data

Results flagged for a closer look

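Some members were at least 2-fold apart in opposite directions in the normal and the IUGR pair, with intervals that left out equal levels in both. Each group is 1 pool, so the difference between the pairs was not tested. The log2 ratio of vein over artery of miR-144 was −1.77 in normal and 1.12 in IUGR piglets. For an end variant of miR-106b-5p, of 20 bases, it was −1.41 and 2.37, and for miR-21 −1.08 and 1.53. For miR-9841-3p it was −1.03 in normal piglets, and 13 IUGR vein reads against 0 IUGR artery reads set a bound of at least 2.90 against 3 counts. For miR-145-5p it was 1.61 in normal and −1.09 in IUGR piglets. The more abundant miR-106b-5p row, of 21 bases, was at −0.92 in normal piglets. All of these reversals but that of miR-145-5p also depend on the scaling total. With the left-out rows kept in it, normal log2 ratios were 0.68 higher. The normal ratios of the miR-106b-5p variant, miR-21 and miR-9841-3p were then less than 2-fold. The same total would lower the IUGR ratios, as the left-out rows took 55.8% of IUGR vein and 38.8% of IUGR artery reads. The IUGR ratio of miR-144 would then be less than 2-fold too. For miR-145-5p the ratios of the pairs would move further apart, so it alone would stay at least 2-fold apart in opposite directions.

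Rows outside the comparison held many reads. Rows named PC- or miR-3168 took 46.0% of the normal artery reads and 13.2% of the normal vein reads. Most of them lay in 3 rows, which took 17.1%, 15.4% and 10.4% of all normal artery reads and 5.29%, 4.39% and 2.82% of all normal vein reads.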

How the results depend on the processing

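With 19 members at least 2-fold higher in vein and 45 in artery as reported, keeping the rows named PC- and miR-3168 in the total gave 47 and 25, and the deposited normalized values gave 45 and 25. A minimum of 5 reads gave 68 higher in artery, and a minimum of 50 gave 10 in vein and 12 in artery. The cause of these moves beyond the change of total and of rows was not tested. Among the counts 20 of the alternative values stayed within 1.5 times the reported one and 9 did not. Over all 4 libraries edgeR called 0 rows, and it also called 0 with the replicate block (the pool), where the smallest adjusted p was 0.0547. DESeq2 called 2. Leaving out 1 library at a time gave 0 to 16 calls. The 16 came without the normal artery library, the shallower of the normal pair, with 1 row higher in vein and 15 in artery. That fit assumes that the lone artery library varies like the others. Depth limits the artery side: 1 artery read is worth 1.35 per 10000, and a count of 0 there allows up to 4.04 per 10000.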

Other observations

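Reads were spread somewhat more evenly over rows in artery than in vein, with no replicate behind the difference. The 10 most abundant rows held 67.9% of the remaining vein reads and 60.2% of the remaining artery reads, and the Shannon index was 3.19 nats in vein and 3.55 nats in artery. Rows with at least 1 read numbered 430 in vein and 342 in artery. Thinned to the artery depth, the vein library would be expected to list 248 rows. Leaving miR-451 aside, the remaining reads had a GC content of 51.0% in vein and 47.8% in artery.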
